A study of Mus musculus with 2 samples.

Results

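CC chemokine transcripts were measured in mononuclear phagocytes sorted from B16 melanoma tumors. The genes described are the 10 CC chemokines Ccl2, Ccl3, Ccl4, Ccl5, Ccl6, Ccl7, Ccl8, Ccl9, Ccl12 and Ccl24, found by their symbols among the 27998 genes of the count matrices. The data are 2 droplet-based single-cell libraries, 1 from Fcmr+/+ and 1 from Fcmr-/- C57Bl/6 mice, which differ by loss of Fcmr, the putative receptor for soluble IgM. The Fcmr-/- allele was not restricted to a cell type by a Cre transgene, and the injected B16 cells, a mouse melanoma line, were the same in both genotypes. Cells carrying MerTk and CD64, a pair of surface proteins of mature macrophages, were sorted by FACS after enzymatic digestion of the tumors at 37 °C. The age of the mice and the number of mice behind each library are not given in the sources used here. The comparison asks how the level, the spread over cells and the joint expression of CC chemokines differed between the genotypes and between macrophage states.

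CC chemokines are small secreted proteins that guide leukocytes through G protein-coupled receptors. Ccl2, Ccl7 and Ccl12 bind CCR2, the receptor by which monocytes leave the bone marrow and enter inflamed tissue and tumors, while mouse Ccl8 acts mainly on CCR8. Ccl3, Ccl4 and Ccl5 are inflammatory chemokines that draw T cells, NK cells and monocytes, and Ccl3 and Ccl5 bind CCR1. Ccl6 and Ccl9 are rodent CCR1 ligands made in quantity by myeloid cells, and Ccl24 is an eotaxin that binds CCR3 on eosinophils. Tumor macrophages are a well known source of many of these proteins.

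In GRCm38, 9 of the 10 genes lie on chromosome 11. Ccl2 (chr11:82035571-82037453), Ccl7 (chr11:82045712-82047525), Ccl12 (chr11:82101845-82103400) and Ccl8 (chr11:82115185-82116799) lie in that order on the plus strand within 81.2 kb, with Ccl11 also inside. A gap of 1409 kb separates them from Ccl5 (chr11:83525778-83530518), Ccl9 (chr11:83572919-83578636), Ccl6 (chr11:83587882-83593087) and Ccl3 (chr11:83647844-83649355) on the minus strand and Ccl4 (chr11:83662584-83664683) on the plus strand, which span 139 kb. Ccl24 (chr5:135569937-135573049) lies on the minus strand of chromosome 5. The longest run of identical bases between transcripts of any member and another CC chemokine was 25 bases, between Ccl6 and Ccl9, followed by 23 bases between Ccl2 and Ccl7.

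Promoter sequences from RefSeq (GRCm38.p6) matched 5 members, Ccl3, Ccl6, Ccl8, Ccl9 and Ccl12. The 150 bases before the start of 2 neighboring pairs are shown because the pairs contrast in the data, with strong co-expression of Ccl6 and Ccl9 and weaker co-expression of Ccl8 and Ccl12. Each is given 5′ to 3′ on the strand of its gene. Capitals mark TATAAA, the letters of a TATA box, or, in Ccl9, also a match to TGANTCA. The latter is a loose form of the AP-1 motif that allows any base in the middle.
Ccl12, plus strand, chr11:82101695-82101844: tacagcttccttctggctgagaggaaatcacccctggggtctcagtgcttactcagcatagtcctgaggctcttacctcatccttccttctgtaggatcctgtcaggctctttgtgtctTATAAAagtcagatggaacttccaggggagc
Ccl8, plus strand, chr11:82115035-82115184: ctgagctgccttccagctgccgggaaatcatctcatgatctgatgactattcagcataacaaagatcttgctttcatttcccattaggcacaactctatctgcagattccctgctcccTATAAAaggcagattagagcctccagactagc
Ccl9, minus strand, chr11:83578637-83578786: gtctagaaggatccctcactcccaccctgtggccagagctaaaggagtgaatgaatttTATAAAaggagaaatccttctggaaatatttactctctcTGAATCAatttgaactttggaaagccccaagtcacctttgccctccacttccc
Ccl6, minus strand, chr11:83593088-83593237: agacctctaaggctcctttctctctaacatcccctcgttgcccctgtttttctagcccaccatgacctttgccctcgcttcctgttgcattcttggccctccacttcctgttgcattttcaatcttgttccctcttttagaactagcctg

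TATAAA on the gene's own strand occurred in the 250 bases before the start of Ccl12, Ccl8 and Ccl9, and in 7.59% of 32851 promoters of that length. It began 31 bases before the start in Ccl12, 32 in Ccl8 and 92 in Ccl9. The Ccl9 match thus lay farther from the annotated start, and whether it serves as a TATA box was not tested. TGANTCA on either strand, with any middle base, was found in Ccl9 among the 5, as TGAATCA, and in 6.75% of all promoters. No match to the GAS motif TTCNNNGAA (7.02% of all promoters), the ISRE motif, GAAA and GAAA with 2 bases of any kind between them (2.98%), or the NF-kappaB motif, GGGA and TTCC with 2 bases of any kind between them (1.21%), was found in these 5 windows on either strand. No matches of different motifs overlapped. The Ccl8 and Ccl12 windows of 150 bases were identical at 60.5% of aligned columns, against 46.0% for Ccl6 and Ccl9 and a range of 43.5% to 51.2% over the 9 pairs other than Ccl8 and Ccl12. Windows were aligned over their full length, so stretches shared at different distances from the annotated starts can be missed.

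The Fcmr+/+ library held 131062107 unique molecular identifiers (UMIs) and the Fcmr-/- library 125802196, and 6352 and 7999 cells were kept. Transcripts of Fcmr itself were nearly absent, with 7 UMIs in the Fcmr+/+ library and 6 in the Fcmr-/- library, so neither label could be checked. Median depth was 17974 UMIs per Fcmr+/+ cell and 12911 per Fcmr-/- cell, so shares of cells with a UMI are given after each cell was thinned to 6000 UMIs, which left out 443 shallower Fcmr-/- cells. The libraries shared 73 cell barcodes, 1.15% of those kept in Fcmr+/+ and 0.913% in Fcmr-/-. The 9 macrophage markers were abundant in both, with a summed level of 18623 CPM (UMIs of a gene per 1000000 UMIs of the cells) in Fcmr+/+ and 18470 in Fcmr-/-. The 7 T and NK cell markers found of 8 summed to 1.03 CPM in Fcmr+/+ and 14.7 in Fcmr-/-, with Ncr1 at 0 UMIs in Fcmr+/+ and 1 UMI in Fcmr-/-. The 8 dendritic cell markers summed to 98.9 and 83.7 CPM, mostly from Clec10a at 90.7 and 70.7 CPM. The other dendritic cell markers were near equal or higher in Fcmr-/-, such as Xcr1 at 0.125 and 0.746 CPM and Ccr7 at 1.58 and 4.84. The 6 neutrophil markers summed to 31.2 and 47.7 CPM and the 5 melanoma markers to 40.2 and 63.6, while fibroblast markers stayed under 1 CPM. With 1 library per genotype, genotype and library cannot be told apart and the genotypes were not tested against each other. The intervals given are at 95% and exact (Poisson for a CPM, Clopper-Pearson for a share of cells), and they cover counting error only.

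Most members were among the abundant transcripts of these cells, and Ccl2, Ccl7, Ccl8 and Ccl12, neighbors on chromosome 11, were at a higher level in Fcmr-/- cells. 1 of the 10 members, Ccl8, was at least 2-fold higher in Fcmr-/- cells, against 0.793% of the 8701 genes with at least 5 CPM in either library. No member was at least 2-fold lower, against 0.287% of those genes. 9 of 10 members were higher in Fcmr-/- cells, with Ccl4 the exception. The median log2 ratio of Fcmr-/- to Fcmr+/+ (after 1 CPM was added) was 0.35 over the 10 members and 0.0023 over the 8701 genes, of which 50.5% were higher in Fcmr-/-. Each UMI marks 1 transcript end regardless of transcript length, so CPM were compared between genes without a length correction.

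**Figure D1:**
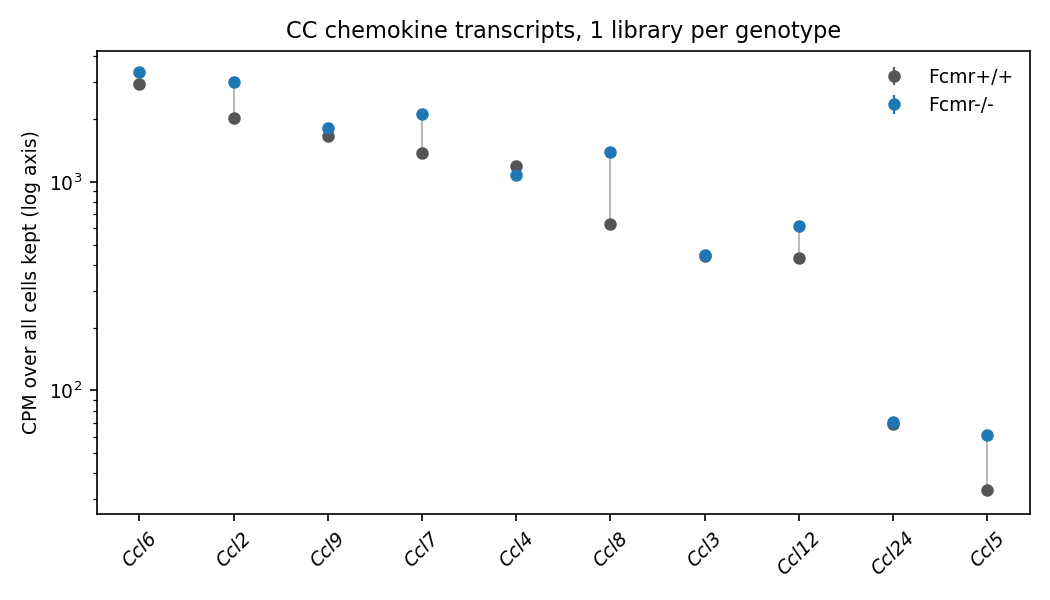
CPM of the 10 CC chemokines over all cells kept (log axis) in the Fcmr+/+ library (gray) and the Fcmr-/- library (blue), ordered by the Fcmr+/+ level. Bars are exact 95% Poisson intervals, mostly smaller than the points. Ccl6 stood highest in both at 2938 and 3361 CPM, Ccl5 lowest at 33.2 and 60.9, and Ccl8 had the widest gap of the 10 at 627 and 1384.

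Ccl2, the main attractant of CCR2+ monocytes, was measured at 2014 CPM (interval 2006 to 2022) in Fcmr+/+ cells and 3020.2 CPM (interval 3011 to 3029.9) in Fcmr-/- cells. This corresponds to 0.58 on the log2 scale. The thinned share with a Ccl2 UMI was 88.9% in Fcmr+/+ (interval 88.1 to 89.7) and 94.4% in Fcmr-/- (interval 93.8 to 94.9). Without thinning these shares were 95.7% and 97.0%, so the gene was detected in most cells of either genotype and the difference lay more in the amount per cell. The median thinned cell held 6 Ccl2 UMIs in Fcmr+/+ and 11 in Fcmr-/-. Ccl7, a related CCR2 ligand encoded next to Ccl2, had a ratio of similar size, with 1377 CPM in Fcmr+/+ and 2113 in Fcmr-/-, a log2 ratio of 0.62. Its median was 4 UMIs per thinned Fcmr+/+ cell and 7 per thinned Fcmr-/- cell. Ccl12, a further CCR2 ligand of the group, was less abundant, at 432 CPM (interval 429 to 436) and 616 CPM (interval 612 to 620.5), a ratio of 1.42. Its UMIs were found in 46.4% of thinned Fcmr+/+ cells and 57.9% of thinned Fcmr-/- cells, and in 65.1% and 69.3% without thinning.

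Ccl8 differed most between the libraries among the 10 members. It was measured at 627 CPM (interval 623 to 632) in Fcmr+/+ cells and 1384 CPM (interval 1377 to 1390.1) in Fcmr-/- cells, a ratio of 2.21 and a log2 ratio of 1.14. Thinned shares of cells with a Ccl8 UMI were 49.7% (interval 48.4 to 50.9) and 65.7% (interval 64.6 to 66.7), against 70.3% and 78.8% without thinning. Thinned cells with at least 1 Ccl8 UMI held an average of 6.43 in Fcmr+/+ and 10.8 in Fcmr-/-, so both the share of cells and the amount in them were higher in Fcmr-/-. This ratio was smaller without the cell state described as cluster 1 below, which held 1.46% of Fcmr+/+ cells and 29.2% of Fcmr-/- cells. In a comparison without cluster 1, chosen once the values were known, Ccl8 had a log2 ratio of 0.52 and no member reached a 2-fold difference. In that comparison the log2 ratio was 0.53 for both Ccl2 and Ccl7 and 0.34 for Ccl12. The largest was that of Ccl5, 0.90, at 31.6 CPM in Fcmr+/+ and 59.8 CPM in Fcmr-/-.

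Ccl3 and Ccl4, the macrophage inflammatory proteins, were close in level between the libraries. Ccl3 was measured at 441 CPM (interval 438 to 445) in Fcmr+/+ cells and 448 CPM (interval 444 to 452) in Fcmr-/- cells, a ratio of 1.02 (interval 1.00 to 1.03). Ccl4 was measured at 1191 CPM in Fcmr+/+ cells and 1079 CPM in Fcmr-/- cells, a ratio of 0.906. Ccl4 was thus the member with a lower level in Fcmr-/- cells, while its thinned share of cells with a UMI was 67.6% in Fcmr+/+ and 69.8% in Fcmr-/-. Of the 10 genes of an immediate-early and dissociation list, such as Fos, Jun and Atf3, 1 was at least 2-fold lower in Fcmr-/-, against 0.287% of the 8701 genes. The list summed to 5800.4 CPM in Fcmr+/+ and 5185 in Fcmr-/-. Its part in the Ccl3 and Ccl4 levels was not tested.

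Ccl5, an inflammatory chemokine also made by T and NK cells, was rare and uneven. It was measured at 33.2 CPM (interval 32.2 to 34.2) in Fcmr+/+ cells and 60.9 CPM (interval 59.5 to 62.3) in Fcmr-/- cells, a ratio of 1.84 and a log2 ratio of 0.86. The log2 ratio was 0.54 after thinning. Thinned shares of cells with a Ccl5 UMI were 5.10% and 8.42%, against 10.0% and 13.2% without thinning. A T or NK cell marker UMI was found in 35 Fcmr+/+ cells and 126 Fcmr-/- cells, which held 1.97% and 12.5% of all Ccl5 UMIs. Without these cells the log2 ratio of Ccl5 was 0.72, at 32.7 and 54.4 CPM. Cells with a UMI of a dendritic cell marker other than Cd209a and Clec10a, a check added after the data were seen, numbered 140 and 242 and held 4.70% and 14.6% of Ccl5 UMIs, and the log2 ratio without them was again 0.72. Without cells with a melanoma marker UMI, a check of the same kind, it was 1.14, past 2-fold. This check left out 2565 Fcmr+/+ cells (40.4%) and 3542 Fcmr-/- cells (44.3%), which held 51.2% and 45.7% of Ccl5 UMIs. Leaving out the 1065 and 1224 cells with an S100a8 or S100a9 UMI gave a log2 ratio of 0.79. The log2 ratio was thus positive with and without the cells holding each set of markers.

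Ccl6 and Ccl9, CCR1 ligands, were the most evenly spread. Ccl6 was measured at 2938 CPM in Fcmr+/+ cells and 3361 CPM in Fcmr-/- cells, a ratio of 1.14 (interval 1.14 to 1.15). It was found in 97.0% and 97.7% of thinned cells. Ccl9 was measured at 1659 CPM and 1812 CPM, a ratio of 1.09, and was found in 96.2% and 95.7% of thinned cells. Both genes were present in nearly every cell of either genotype. Ccl24, the eotaxin, was measured at 69.3 CPM (interval 67.9 to 70.7) in Fcmr+/+ cells and 70.6 CPM (interval 69.1 to 72.1) in Fcmr-/- cells, intervals that overlap. A Ccl24 UMI was found in 15.0% of thinned Fcmr+/+ cells and 13.3% of thinned Fcmr-/- cells.

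Summed over the 10 members, CC chemokines took 1.08% of all UMIs of the Fcmr+/+ library and 1.40% of those of the Fcmr-/- library, or 10783 and 13965 CPM, a ratio of 1.30. The excess came mainly from the Ccl2 locus. Ccl2, Ccl7, Ccl8 and Ccl12 together had 4451 CPM in Fcmr+/+ and 7133 in Fcmr-/-, a ratio of 1.60, and made up 41.3% and 51.1% of the members' UMIs. Ccl6 and Ccl9 together had 4598 and 5173 CPM and made up 42.6% and 37.0%. Ccl3 and Ccl4 together had 1632 and 1527 CPM and made up 15.1% and 10.9%. The chemokine output of the Fcmr-/- library, as transcripts, was therefore weighted more to the Ccl2 locus than that of the Fcmr+/+ library. The median thinned cell held UMIs of 6 members in Fcmr+/+ and 7 in Fcmr-/-, and 6.01% and 2.40% of cells held 3 members or fewer.

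The members differed in how their UMIs were shared out among cells. Ccl9 was the most even, with 50% of its thinned UMIs in 21.4% of Fcmr+/+ cells and 20.6% of Fcmr-/- cells. Ccl6 followed at 18.8% and 19.0% of cells, and Ccl2 at 14.8% and 14.9%. In between, 50% of the Ccl4 UMIs lay in 7.21% of Fcmr+/+ cells and 8.03% of Fcmr-/- cells, and 50% of the Ccl8 UMIs in 4.80% and 5.89%. Ccl24 was concentrated in 1.70% and 1.42% of cells. Ccl5 stood at the far end, with 50% of its thinned UMIs in 22 of 6352 Fcmr+/+ cells and 60 of 7556 Fcmr-/- cells. The order from even to concentrated was near the same in both libraries, from Ccl9 and Ccl6 to Ccl24 and Ccl5.

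To place the chemokines by macrophage state, cells of both libraries were clustered together with every CC and CXC chemokine left out of the variable genes, so the members did not shape the clusters. This gave 10 clusters, numbered by size. Cluster 1 (2425 cells, 96.2% of them Fcmr-/-) was led by Iigp1, Serpina3g, Gbp4 and Ly6a and is type II interferon-high-like by 3 of its fixed markers. Cluster 8 (869 cells, 73.3% Fcmr-/-) was led by Rsad2, Ifit3, Ifit1 and Mx1 and is type I interferon-high-like by 4 markers. The other clusters are named by number and leading genes. Cluster 2 was led by Il1r2, Ifitm1, Ear2 and Mgl2, cluster 3 by Tfrc, Gas6 and Slc40a1, cluster 4 by the cytokine genes Areg, Il1a, Il1b and by Spp1, cluster 5 by the mitotic genes Cenpf and Top2a, and cluster 6 by hemoglobin genes and the hypoxia-responsive genes Adm, Egln3 and Slc2a1. Cluster 7 was led by Mfge8, Ctsk and Gpnmb, cluster 9 by Fbxo32, Acp5 and Apoe, and cluster 10 by Adm, Cdk18 and Dct. Cluster 1 held 93 Fcmr+/+ cells, so its Fcmr+/+ values rest on few cells. Median depth ranged from 8752 UMIs per cell in cluster 8 to 26045 in cluster 5.

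Levels of 5 members, Ccl4, Ccl5, Ccl8, Ccl12 and Ccl24, differed at least 4-fold between the highest and the lowest cluster when both libraries were summed. The share of all genes with such a range was not computed, so this count has no background. Ccl2 was highest in cluster 4 at 3725 CPM and lowest in cluster 9 at 1065 CPM, a ratio of 3.50. Ccl7 followed the same extremes, with 2638 and 814 CPM. Ccl6 and Ccl9 were also highest in cluster 4, at 4689.7 and 2892 CPM, and lowest in cluster 9, at 1750.2 and 1009.6 CPM. In each library alone, the cluster led by Areg, Il1a and Il1b was again the top state for Ccl2, Ccl7, Ccl9 and Ccl24, the last at 191 CPM in the sum against 18.8 CPM in cluster 10. For Ccl6 this held in Fcmr-/- only, since in Fcmr+/+ cluster 1 had 4289.8 CPM, from 93 cells, and cluster 4 had 4046 CPM. Cluster 4 held 28.8% and cluster 2 held 28.9% of the Ccl24 UMIs. In Fcmr+/+ alone the Ccl24 intervals of these 2 clusters overlapped, at 131.9 to 143.8 CPM in cluster 4 and 127.8 to 136.9 CPM in cluster 2.

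Ccl8 and Ccl12 followed another order. Ccl8 reached 2315 CPM in cluster 1, which held 40.1% of its UMIs, and was lowest in cluster 6 at 276 CPM, a ratio of 8.39. Cluster 4, the top state for Ccl2, had 429 CPM of Ccl8. Ccl12 was 745.5 CPM in cluster 1 and 733 CPM in cluster 3, with intervals of 737 to 754 and 725 to 742, and lowest in cluster 7 at 170 CPM. Within each library alone, the CPM of Ccl8 was again highest in cluster 1, though in Fcmr+/+ this rests on 93 cells. The thinned share of cells with a Ccl8 UMI was highest in other clusters. In Fcmr+/+ it was 44.1% in cluster 1 (interval 33.8 to 54.8) and 69.6% in cluster 3. In Fcmr-/- it was 75.9% in cluster 1 and 81.2% in cluster 5. Ccl12 was highest in cluster 3 within each library, at 688 CPM in Fcmr+/+ and 901 CPM in Fcmr-/-, and cluster 1 had 568 and 753 CPM. Cluster 1 was thus the highest for Ccl12 only in the sum, to which its Fcmr-/- cells gave nearly all of its UMIs. Ccl2 and Ccl7, of the same locus, were highest in cluster 4 in each library.

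Ccl4 and Ccl5 were highest in cluster 8, the type I interferon-high-like state, in the sum and in each library. Ccl4 was measured at 2712 CPM there and at 342 CPM in cluster 7, a ratio of 7.94. Ccl5 was measured at 358 CPM in cluster 8 and 5.28 CPM in cluster 7, a ratio of 67.9, and cluster 8 held 29.1% of its UMIs in 869 cells. Ccl3 varied less, from 658 CPM in cluster 8 to 199 CPM in cluster 7 in the sum of both libraries. In Fcmr+/+ alone Ccl3 was highest in cluster 3 at 551 CPM, with 476 CPM in cluster 8, and in Fcmr-/- alone it was highest in cluster 8 at 739 CPM. For Ccl5 the thinned share of cells with a UMI was 23.3% of Fcmr+/+ and 20.6% of Fcmr-/- cells in cluster 8, so most cells of that state had no Ccl5 UMI. No cell type in the sort was known to lack CC chemokines, so a background from free RNA was not measured. The lowest thinned share in any cluster and library was 73.6% for Ccl2, 32.8% for Ccl8, 6.92% for Ccl24 and 1.54% for Ccl5.

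**Figure D2:**
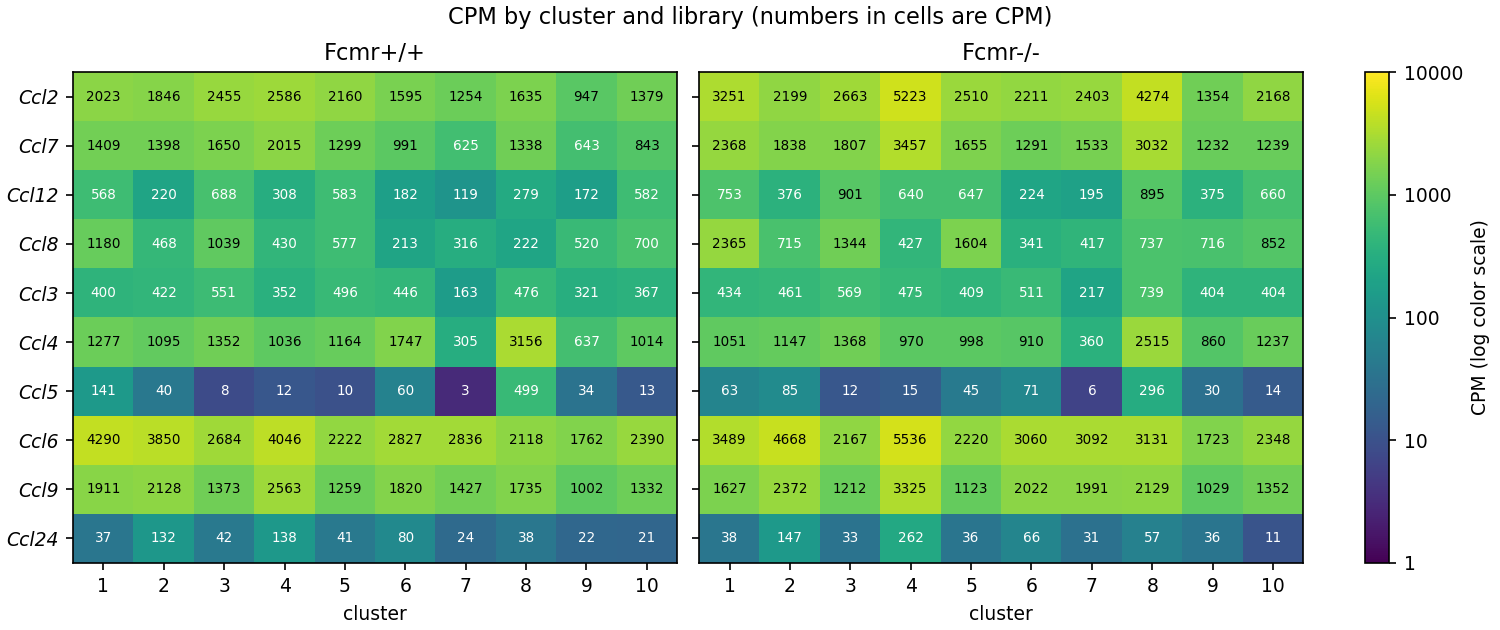
CPM of the 10 CC chemokines in each of 10 clusters (columns) for the Fcmr+/+ library (left) and the Fcmr-/- library (right), on a log color scale with the CPM written in each cell. Ccl2 and Ccl7 were highest in cluster 4 of both libraries, Ccl8 in cluster 1, and Ccl4 and Ccl5 in cluster 8.

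Within clusters, Ccl2, Ccl7 and Ccl12 were higher in Fcmr-/- cells in 10 of 10 clusters. The ratio ranged from 1.08 in cluster 3 to 2.61 in cluster 8 for Ccl2, from 1.10 in cluster 3 to 2.45 in cluster 7 for Ccl7 and from 1.11 in cluster 5 to 3.21 in cluster 8 for Ccl12. In each of these clusters the counting interval of the ratio lay above 1. The 10 clusters come from the same pair of libraries and are not independent of each other. For none of the members was the number of clusters with a higher level set against that of all genes. Ccl8 was higher in 9 of 10 clusters, with a ratio of 0.992 (interval 0.956 to 1.03) in cluster 4 and 3.32 in cluster 8. In cluster 1, Ccl8 was 1180.2 CPM in 93 Fcmr+/+ cells and 2365 CPM in 2332 Fcmr-/- cells. In cluster 5, led by Cenpf and Top2a, Ccl8 was 577 CPM in Fcmr+/+ and 1604 CPM in Fcmr-/-.

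Cluster 8 had the widest ratios for Ccl2, Ccl8 and Ccl12, and 4 members were at least 2-fold higher there in Fcmr-/- cells, against 1.56% of the genes tested there. Ccl2 was 1635 CPM in its 232 Fcmr+/+ cells and 4274 CPM in its 637 Fcmr-/- cells. Ccl8 was 222 and 737 CPM, Ccl12 279 and 895 CPM, and Ccl7 1338 and 3032 CPM. In the same cluster Ccl4 was 3156 CPM in Fcmr+/+ and 2515 CPM in Fcmr-/-, and Ccl5 was 499 and 296 CPM, so Ccl4 and Ccl5 went the other way. In cluster 4, 2 members were at least 2-fold higher, against 0.616% of genes, Ccl2 at 2586 and 5223 CPM and Ccl12 at 308 and 640.2 CPM. In cluster 5, Ccl8 and Ccl5 were at least 2-fold higher, against 1.25% of genes. With 1 CPM added, as in the background, 1 member was at least 2-fold higher in each of cluster 1 (Ccl8, against 0.964% of genes), cluster 2 (Ccl5, against 0.592%), cluster 7 (Ccl7, against 0.827%, while the ratio of 2.15 for Ccl5 there, at 2.98 and 6.42 CPM, was below 2-fold once 1 CPM was added) and cluster 9 (Ccl12, against 1.26%). Ccl5 in cluster 1 was the only value at least 2-fold lower among the 10 members and 10 clusters, against 0.674% of genes there and 0.255% in cluster 2, 0.338% in cluster 4, 0.313% in cluster 5, 0.662% in cluster 7, 1.38% in cluster 8 and 1.16% in cluster 9. In clusters 3, 6 and 10 no member reached 2-fold in either direction, against 0.16%, 0.89% and 0.892% of genes higher and 0.321%, 0.481% and 0.776% lower.

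The other members had mixed directions. Ccl3 was higher in Fcmr-/- cells in 9 of 10 clusters, with ratios from 0.823 in cluster 5 to 1.55 in cluster 8, though the pooled ratio was 1.02. Ccl4 was higher in 5 of 10 clusters, with a low of 0.521 in cluster 6, where it was 1747 CPM in Fcmr+/+ and 910 CPM in Fcmr-/-. Ccl6 was higher in 5 clusters and Ccl9 in 7, and no ratio of either reached 2-fold. Ccl24 was higher in 6 clusters, with 138 CPM in Fcmr+/+ and 262 CPM in Fcmr-/- in cluster 4. When clusters were given equal weight in both libraries, the log2 ratio was 0.66 for Ccl2, 0.67 for Ccl7, 0.61 for Ccl12 and 0.75 for Ccl8, and -0.36 for Ccl5, the opposite sign to its pooled ratio.

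**Figure D3:**
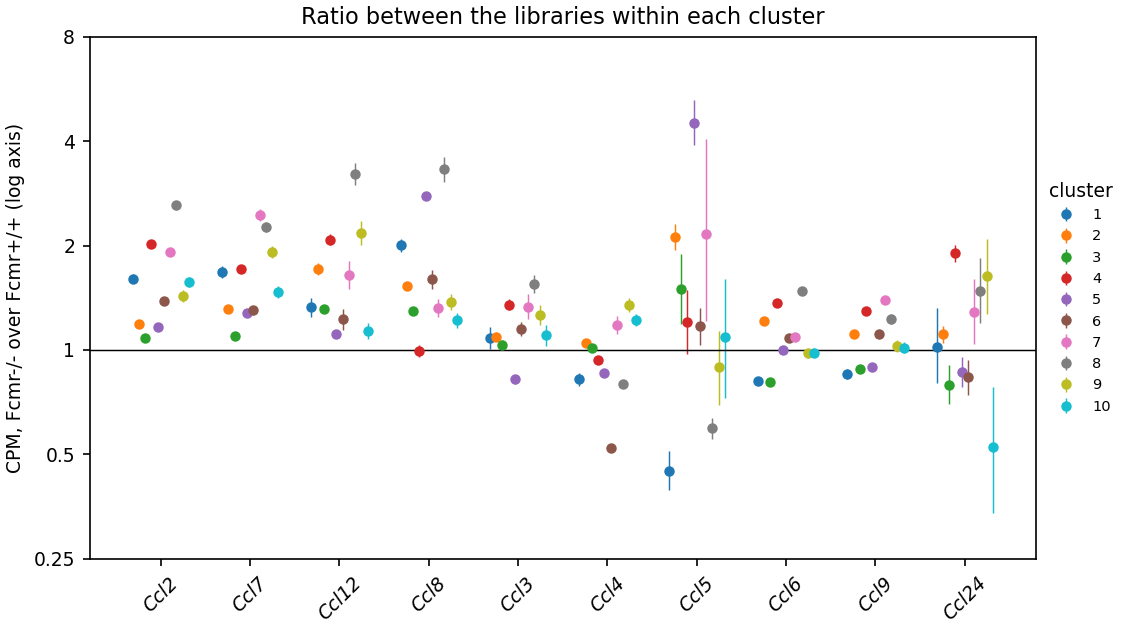
Ratio of the CPM in Fcmr-/- to that in Fcmr+/+ cells within each of 10 clusters (colors), on a log axis with 95% counting intervals, for each member. Points of Ccl2, Ccl7 and Ccl12 lie above 1 in 10 of 10 clusters, while Ccl5 spans 0.448 in cluster 1 to 4.52 in cluster 5. The Ccl5 value in cluster 1 rests on 262 UMIs in 93 Fcmr+/+ cells.

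Ccl5 in particular rested on few cells. Its 873 UMIs in Fcmr-/- cells of cluster 5 lay in 109 of 776 cells, and 6 cells held 50% of them. Cells with a T or NK cell marker UMI held 38.7% of these, and without them Ccl5 in cluster 5 was 9.93 CPM in Fcmr+/+ and 28.2 CPM in Fcmr-/-. In cluster 8, 8 of 232 Fcmr+/+ cells and 17 of 637 Fcmr-/- cells held 50% of the Ccl5 UMIs. Cells with T or NK cell markers held 0.477% and 5.22% of the Ccl5 UMIs there. In cluster 2, cells with dendritic cell marker UMIs held 14.1% of the Ccl5 UMIs in Fcmr+/+ and 48.8% in Fcmr-/-. In cluster 1, the 262 Ccl5 UMIs of Fcmr+/+ lay in 23 of 93 cells, and 3 cells held 50% of them. Ccl5 ratios by cluster therefore compare small numbers of high cells.

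Members were then followed along 3 gene lists that hold no CC chemokine, with thinned cells of both libraries ranked by their summed UMIs of a list and divided into quartiles. Cells tied on the list were split at random, and these comparisons across cells are descriptions. Along the immediate-early and dissociation list, Ccl3 went from 210 CPM in the lowest to 705 CPM in the highest quartile of Fcmr+/+ cells and from 258 to 765 CPM in Fcmr-/- cells. Ccl4 went from 599 to 1972 CPM and from 626 to 1873 CPM. Both libraries had thus about the same slope for this pair, with Spearman's rho of 0.27 and 0.25 for Ccl3 and 0.24 and 0.22 for Ccl4. For the other 8 members rho lay between -0.03 and 0.11 along this list, though some also differed in CPM between the lowest and the highest quartile. Ccl2 went from 1515 to 2171 CPM in Fcmr+/+ and from 2604 to 3222 in Fcmr-/-, and Ccl7 from 1009 to 1524 and from 1777 to 2366. Ccl5 went from 38.1 to 59.0 and from 50.2 to 86.6 CPM. In Fcmr+/+ Ccl24 went from 58.6 to 109 CPM and Ccl12 from 377 to 284, and in Fcmr-/- from 81.7 to 74.4 and from 512 to 556. Tumors were digested at 37 °C, and how much of the Ccl3 and Ccl4 level arose during digestion was not tested.

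Along the type I interferon list (Isg15, Ifit1, Ifit2, Ifit3, Rsad2, Irf7 and Oas3), Ccl5 went from 8.53 to 211 CPM in Fcmr+/+ cells and from 15.0 to 145 CPM in Fcmr-/- cells. Ccl4 was nearly flat over the 3 lower quartiles, from 898 to 929 CPM in Fcmr+/+ and from 848 to 935 CPM in Fcmr-/-, and reached 2706 and 1665 CPM in the highest. The step thus lay in the quartile with the most interferon transcripts. That quartile spanned 4 to 285 UMIs of the list per Fcmr+/+ cell and 4 to 275 per Fcmr-/- cell, against 1 to 4 in the quartile below. The lowest and the next quartile of this list both held cells with 0 UMIs, split at random. Between its lowest and highest quartile in Fcmr-/- cells, Ccl8 went from 852 to 1349 CPM, with a rho of 0.05. In the same cells Ccl12 went from 503 to 706 CPM, Ccl2 from 2921 to 3466 and Ccl7 from 1927 to 2500. In Fcmr+/+ cells Ccl8 went from 509 to 461 CPM, Ccl12 from 386 to 366, Ccl2 from 1839 to 1950 and Ccl7 from 1243 to 1456. Along the type II interferon list (Cxcl9, Iigp1, Gbp2, Gbp4, Gbp5, Igtp and Nos2), Ccl8 went from 571 to 1952 CPM in Fcmr-/- cells, with a rho of 0.28. In Fcmr+/+ cells Ccl8 went from 543 to 603 CPM along the same list, with a rho of -0.02 and 530 cells in the highest quartile against 2947 in Fcmr-/-. The lowest and the next quartile held only cells with 0 UMIs of that list, split at random. In the next quartile Ccl8 was 480.1 CPM in Fcmr+/+ and 649.9 CPM in Fcmr-/-. The quartile below the highest held cells with 0 or 1 UMI, also partly split at random. The highest spanned 1 to 73 UMIs per Fcmr+/+ cell and 1 to 131 per Fcmr-/- cell. List levels within the highest quartile were thus not matched between the libraries. All 7 genes of that list were at least 2-fold higher in the Fcmr-/- library, against 0.793% of the 8701 genes with at least 5 CPM in either library. They summed to 64.7 CPM in Fcmr+/+ and 515 CPM in Fcmr-/-. The list was chosen with earlier results of these data known, so this count is no independent result. Along the type II list Ccl2 showed no climb in Fcmr-/- cells, with 3099.9 CPM in the lowest and 2994 CPM in the highest quartile. Ccl12 went from 524 to 662 CPM there, whereas Ccl9 went from 2101 to 1572 CPM and Ccl24 from 118 to 41.7 CPM. Ccl5 and Ccl4 were also highest in the last quartile of the type II list in both libraries. Ccl5 was 303.1 CPM there in Fcmr+/+ and 120.5 CPM in Fcmr-/-, against 33.5 and 50.8 CPM in the quartile below. Ccl4 was 2179 and 1303 CPM, against 1110.4 and 1138 CPM. The higher level of this pair was thus seen in the highest quartile of both lists. How far the same cells filled both of these quartiles was not measured.

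**Figure D4:**
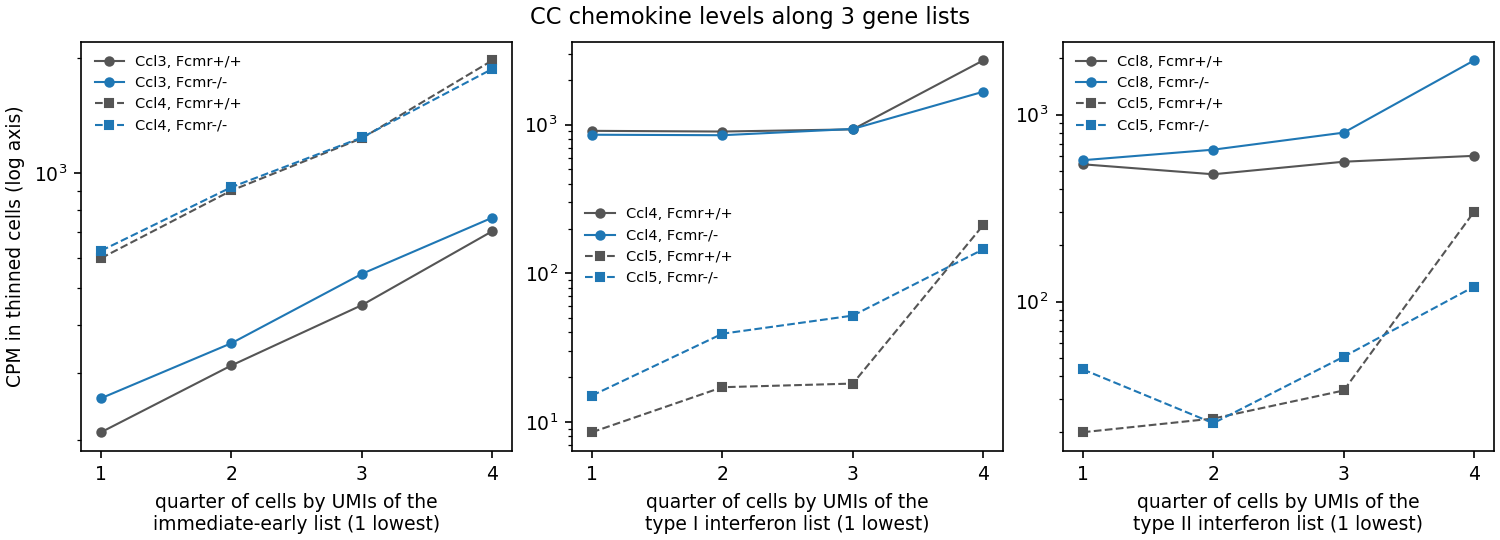
CPM in thinned cells (log axis) by quartile of cells ranked on an immediate-early list (left), a type I interferon list (middle) and a type II interferon list (right), for the Fcmr+/+ library (gray) and the Fcmr-/- library (blue). Ccl3 and Ccl4 climb along the left panel in both libraries. In the middle panel Ccl4 steps up in the last quartile of both libraries, and Ccl5 does so in Fcmr+/+. Ccl5 in Fcmr-/- cells rises at each quartile there, from 15.0 to 39.2, 51.9 and 145 CPM. In the right panel Ccl8 climbs to 1952 CPM in Fcmr-/- cells against 603 CPM in Fcmr+/+ cells. Ccl5 is highest in the last quartile of that panel in both libraries.

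Co-expression was measured for the 45 pairs of members across thinned cells, within each library, as a description without a test because cells share a library. In 5 pairs Spearman's rho was at least 0.3 in both libraries, and these joined genes that lie near each other. The share of pairs of other genes past this value was not computed, so the count has no background. Ccl2 and Ccl7 had the highest value, 0.71 in Fcmr+/+ and 0.76 in Fcmr-/-, followed by Ccl6 and Ccl9 at 0.64 and 0.67. Ccl3 and Ccl4 were at 0.51 and 0.52, Ccl2 and Ccl12 at 0.35 and 0.39, and Ccl7 and Ccl12 at 0.33 and 0.39. The same pairs stood out as a mean within clusters, at 0.66 and 0.73 for Ccl2 with Ccl7, 0.58 and 0.59 for Ccl6 with Ccl9 and 0.45 and 0.51 for Ccl3 with Ccl4. Of Fcmr+/+ cells with a Ccl3 UMI, 79.3% also had a Ccl4 UMI, against 53.5% of those without. Some pairs from different loci reached 0.3 in Fcmr-/- only. Ccl2 was at 0.28 in Fcmr+/+ and 0.36 in Fcmr-/- with Ccl6, and at 0.25 and 0.33 with Ccl9.

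Other pairs of genes near each other had low values. Ccl8 lies beside Ccl12 and had a rho of 0.28 and 0.22 with it, yet 0.12 and 0.03 with Ccl2 and 0.12 and 0.05 with Ccl7. Within the locus of Ccl5, Ccl9, Ccl6, Ccl3 and Ccl4 the median rho of 10 pairs was 0.02 in Fcmr+/+ and 0.04 in Fcmr-/-, below the 0.11 in each library over the 29 pairs from different loci. Within the locus of Ccl2, Ccl7, Ccl12 and Ccl8 the median of 6 pairs was 0.30 and 0.31. The lowest pair was Ccl8 and Ccl9, at -0.08 and -0.17, and within clusters it was -0.01 and -0.04. Ccl5 had no rho above 0.09 with any member in either library, which in so sparse a gene is no finding. Co-expression depended on depth, since without thinning 17 pairs reached 0.3 in both libraries.

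**Figure D5:**
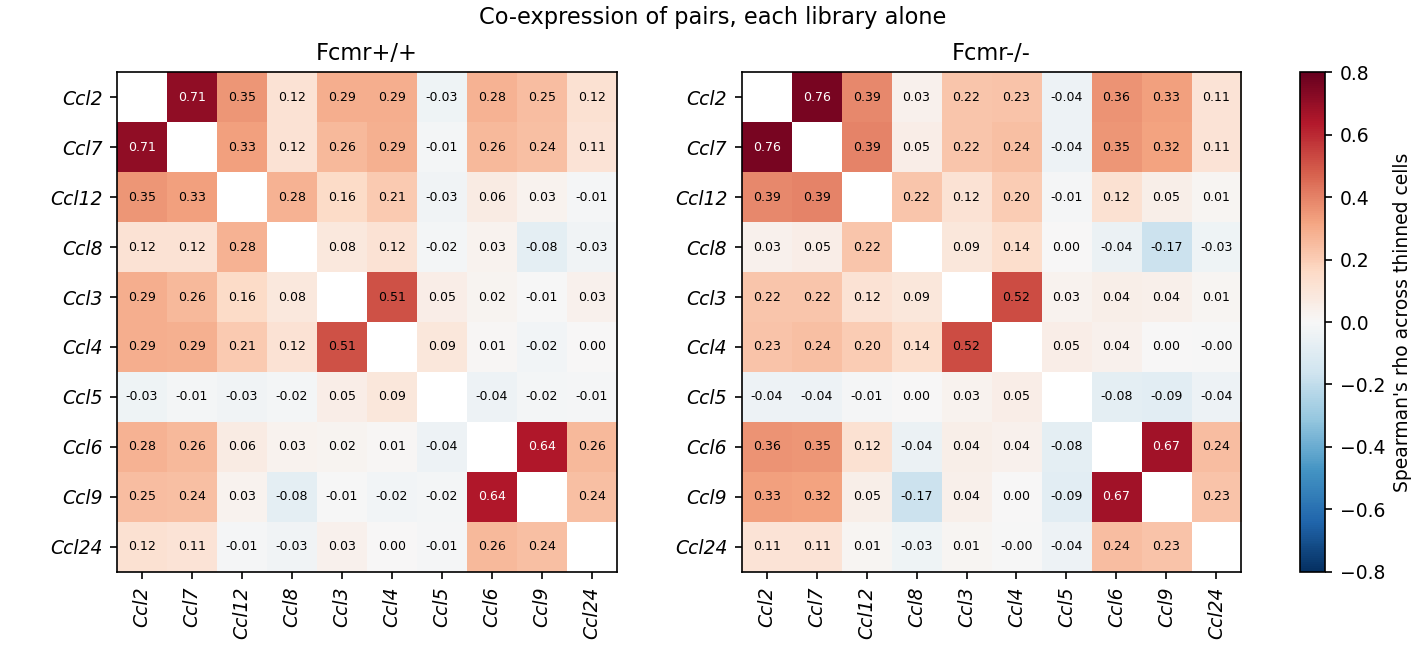
Spearman's rho between CC chemokines across thinned cells for the Fcmr+/+ library (left) and the Fcmr-/- library (right), ordered by locus and role. The darkest pairs are Ccl2 with Ccl7 (0.71 and 0.76), Ccl6 with Ccl9 (0.64 and 0.67) and Ccl3 with Ccl4 (0.51 and 0.52).

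Genes whose pattern across cells was most like each member were taken, with the 10 members themselves left out, from 7147 genes with a UMI in at least 5% of thinned cells of each library, by the mean over both libraries of Pearson's r of log-normalized values. Among these other genes, Ccl2 was most like Cxcl2, a neutrophil chemoattractant (r of 0.34 in Fcmr+/+ and 0.30 in Fcmr-/-), then Dab2 and C5ar1, and Ccl7 was most like the same 3 genes. Ccl12 was most like Dab2 (0.30 and 0.26), Snx2 and the mannose receptor gene Mrc1. Ccl8 was most like Sepp1 (0.38 and 0.38) and the complement genes C1qc and C1qa. The 3 genes most like Ccl8 therefore included complement genes and none of Cxcl2, Dab2 and C5ar1, whose r with Ccl8 is not given here. Ccl3 and Ccl4 were both most like Atf3 (0.25 and 0.22 for Ccl3, 0.29 and 0.22 for Ccl4) and Tnf, followed by Fos for Ccl3 and by Egr1 for Ccl4. Ccl5 was most like the interferon-induced genes Ifit1 (0.33 and 0.19), Ifit2 and Rsad2. Ccl6 was most like Fn1 (0.40 and 0.38), Lyz2 and F13a1, and Ccl9 was most like Fn1 (0.37 and 0.38), S100a4 and S100a6. Ccl24 was most like Fn1 (0.30 and 0.28), F13a1 and the arginase gene Arg1.

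Of the 13 other CC chemokines, 2 reached 5 CPM in either library, and 5 (Ccl19, Ccl21a, Ccl21b, Ccl21c and Ccl26) had 0 UMIs in both. Ccl17, a CCR4 ligand, was 12.8 CPM in Fcmr+/+ and 5.43 CPM in Fcmr-/-, a log2 ratio of -1.10. Ccl25, a CCR9 ligand, was 6.09 and 5.58 CPM. Ccl22, the other CCR4 ligand, was below that level at 0.748 and 1.31 CPM. The CC chemokine output of these cells thus lay almost wholly in the 10 members.

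Receptors of CC chemokines were also measured. Ccr1, a receptor for Ccl3, Ccl5, Ccl6 and Ccl9, was 138 CPM in Fcmr+/+ and 182 CPM in Fcmr-/-, a log2 ratio of 0.40. Ccr2, the receptor for Ccl2, Ccl7 and Ccl12, was 131 and 135 CPM, so it was near equal where its ligands were higher in Fcmr-/-. The atypical receptor gene Ccrl2 was more abundant than either, at 419 and 402 CPM. Ccr3, the receptor for Ccl24, was 1.95 and 0.859 CPM, and Ccr8, the receptor for Ccl8, had 0 UMIs in Fcmr+/+ and 1 in Fcmr-/-. The monocyte list, which holds Ccr2, summed to 392 and 585 CPM over 7 genes. In it 1 gene, Ly6c2, was at least 2-fold higher at 31.1 and 107.6 CPM, against 0.793% of the 8701 genes. Others of the list differed in direction and size, with Hp at a log2 ratio of -0.71, Vcan at 0.22 and Plac8 at 0.76. Its part in the Ccl2 locus difference was not tested.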

How the data were processed

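For each of 2 libraries the authors deposited a matrix of raw UMI counts, genes by cells, made with Cell Ranger on GRCm38 (mm10) per the labels, without normalization. As in the study, cells with 200 to 7000 genes and at most 30% mitochondrial UMIs were kept, and clustering used genes seen in 3 cells or more. No doublet caller was run, and the limit of 7000 genes was the step against multiplets. UMIs were summed over cells and given as CPM, the share of a group's UMIs times 1000000. A pseudocount of 1 CPM was added before log2 ratios, and genes needed 5 CPM in either library. A fold of 2 between libraries and 4 between clusters was counted. Thinning drew 6000 UMIs per cell. Clustering used Seurat 5.3.0 in R 4.3.3, after the study's Seurat 2.1.0 settings, with 1320 variable genes left after 16 chemokine genes were taken out, 10 principal components and a resolution of 0.8. A cluster was named only where at least 3 fixed markers were among its 10 leading genes by fold. The study's own clusters were not used, and differences from them may come from these rebuilt clusters. Python 3.11.15, numpy 2.4.6 and scipy 1.17.1 did the rest, tested on simulated data. Depth was 128408544 and 124630621 UMIs in cells kept. A count of 0 was taken to allow 3 counts. The text names the 10 members, the other CC chemokines, receptors, the 3 most alike genes per member, marker genes and cluster leaders. Receptors and list genes left unnamed are not reported here. The members and lists were chosen with earlier results of these data known. Alternatives covered depth, limits on cells, scaling, cell weights, high cells, clustering and 4 checks added after the data were seen.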

Additional observations from a re-analysis of the deposited data

Results flagged for a closer look

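Ccl5 went in opposite directions between the libraries in different clusters. Among clusters with at least 200 cells per library, its CPM ratio of Fcmr-/- to Fcmr+/+ was 4.52 in cluster 5, led by Cenpf and Top2a, and 0.594 in cluster 8, the type I interferon-high-like cells. With 1 library per genotype the difference between these clusters was not tested. In Fcmr-/- cells of cluster 5, 6 cells held 50% of the Ccl5 UMIs, and cells with a T or NK cell marker UMI held 38.7% of them. Once these cells were left out, Ccl5 in cluster 5 was 9.93 CPM in Fcmr+/+ and 28.2 CPM in Fcmr-/-.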

How the results depend on the processing

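No paired analysis was possible because each genotype has 1 library. With 1 library per genotype, no library could be left out. The count of members at least 2-fold higher in Fcmr-/-, 1 as reported, was 0 with clusters at equal weights, 0 without cluster 1, and 2 (Ccl8 and Ccl5) both without the 1% of cells highest in each gene and without cells with a melanoma marker UMI. The log2 ratio of the members' summed CPM, 0.37 as reported, was 0.43 after thinning, 0.42 with at most 5000 genes per cell, 0.37 with all deposited cells, 0.42 as a mean of each cell's CPM, 0.33 with clusters at equal weights, 0.39 without the 5% of cells with the most UMIs, 0.38 without the 1% of cells highest in each gene, 0.30 without cluster 1, 0.34 without cells with an S100a8 or S100a9 UMI and 0.38 without cells with a melanoma marker UMI. Ccl2, Ccl7, Ccl8, Ccl12, Ccl6 and Ccl9 kept a positive log2 ratio and Ccl4 a negative one under the 16 alternatives run for each. Ccl3 changed sign in 1 of them (-0.07 without cells with an S100a8 or S100a9 UMI), Ccl5 in 1 (-0.36 with clusters at equal weights) and Ccl24 in 3 (down to -0.06 without its 1% highest cells). The 5 members past 4-fold between states became 3 at a resolution of 0.4, 3 when genes were scaled within each library and 7 at 1.2. Pairs with a rho of at least 0.3 in both libraries went from 5 to 17 without thinning and to 4 at 3000 UMIs. The causes were not tested.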

Other observations

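The thinned cell with the highest share of CC chemokine transcripts spent 9.83% of its UMIs on the 10 members in Fcmr+/+ and 11.2% in Fcmr-/-, against medians of 0.833% and 1.13%. UMIs of all 10 members were found together in 11 of 6352 thinned Fcmr+/+ cells and 17 of 7556 thinned Fcmr-/- cells.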
